A study of Mus musculus with 15 samples.

Results

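Mitochondrial fatty acid oxidation was followed through 10 genes that carry long- and medium-chain acyl groups from the outer mitochondrial membrane to acetyl-CoA: Cpt1a, Slc25a20, Cpt2, Acadvl, Acadl, Acadm, Hadha, Hadhb, Acaa2 and Etfdh. The genes were chosen by name, with earlier results of these data known, and all 10 were found among the 32372 genes of the count matrix. Their unique molecular identifiers (UMIs, tags that mark each captured RNA molecule) were added up for each mouse, and again within each of the 3 clusters that the authors deposited.

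The series holds single-cell RNA-seq libraries of CD45 bead-enriched brain cells, labelled microglia, from the cortex and hippocampus of 15 male mice. Every mouse, controls included, was a C57BL/6J animal 3.5 months old that carried the hTfR knock-in, in which human transferrin receptor sequence replaces mouse sequence so that the antibody vehicle can bind. Each received 1 dose of 10 mg/kg. ATV:4D9 is an antibody against mouse TREM2, a lipid-sensing receptor of microglia, on a transport vehicle that binds human transferrin receptor. ATV:RSV carries the same vehicle and served as the control antibody. The 5 groups of 3 mice each were ATV:RSV at day 1, and ATV:4D9 after 1, 7, 14 or 28 days. No ATV:RSV mice were analysed here at the later days, so every day of ATV:4D9 was set against the same 3 control mice, and time in the later groups cannot be told apart from treatment. Each of the 3 processing batches held 1 mouse of every group.

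In textbook outline, CPT1A on the outer membrane joins a long-chain acyl group to carnitine, the carrier SLC25A20 moves the acylcarnitine inward and CPT2 returns the acyl group to CoA. Acyl-CoA dehydrogenases for very long (ACADVL), long (ACADL) and medium (ACADM) chains then open each cycle, the trifunctional protein (HADHA and HADHB) and the thiolase ACAA2 complete it, and ETFDH passes the electrons to ubiquinone. Microglia use the pathway as 1 of several fuel routes, and its genes are classic targets of PPAR and ERR nuclear receptors in other tissues.

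In mm10 with GENCODE M21, all 10 genes are protein coding. Acadl is at chr1:66830839-66863277 on the minus strand, and Acadm at chr3:153922357-153944632 on the minus strand. Hadha (chr5:30118304-30155162, minus strand) and Hadhb (chr5:30155248-30184593, plus strand) are neighbours that start back to back with 85 bases between them. Cpt1a is at chr19:3322334-3385733 on the plus strand, and Acadvl at chr11:70010183-70015411 on the minus strand. Cpt2 is at chr4:107903981-107923610 (minus strand), Slc25a20 at chr9:108662088-108684641 (plus strand) and Etfdh at chr3:79603788-79629500 (minus strand). On the opposite strand, Acadl overlaps the small nuclear RNA gene Gm27934, Acadvl overlaps Dvl2 and Mir324, Hadha overlaps Garem2 and Etfdh overlaps 4930579G24Rik. On the same strand, Acadl overlaps the processed pseudogene Gm15793, Hadhb overlaps Mir1960 and Etfdh overlaps Gm37973. The sources used here do not say whether reads were counted by strand.

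Promoter windows of 300 bases (250 before to 50 after the RefSeq start, GRCm38.p6, which is the build mm10) were used for 9 of the 10 genes, all but Acaa2. The 3 windows below are shown because Acadl and Acadm moved in opposite directions at day 1, and because Hadha and Hadhb start back to back. Capitals in the Acadm window mark motif matches, and capitals in the Hadhb window mark the bases between the GENCODE starts of Hadha and Hadhb, which differ from the RefSeq starts. The windows are Acadl at chr1:66863260-66863559 (minus strand), Acadm at chr3:153944594-153944893 (minus strand) and Hadhb at chr5:30155003-30155302 (plus strand), each written from 5′ to 3′ on the strand of its gene.
Acadl: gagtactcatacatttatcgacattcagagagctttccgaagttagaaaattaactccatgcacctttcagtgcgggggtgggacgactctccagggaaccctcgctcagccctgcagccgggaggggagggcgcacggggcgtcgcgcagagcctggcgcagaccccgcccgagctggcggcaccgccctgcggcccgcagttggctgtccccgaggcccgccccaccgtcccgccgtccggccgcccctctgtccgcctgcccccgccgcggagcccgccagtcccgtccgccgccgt
Acadm: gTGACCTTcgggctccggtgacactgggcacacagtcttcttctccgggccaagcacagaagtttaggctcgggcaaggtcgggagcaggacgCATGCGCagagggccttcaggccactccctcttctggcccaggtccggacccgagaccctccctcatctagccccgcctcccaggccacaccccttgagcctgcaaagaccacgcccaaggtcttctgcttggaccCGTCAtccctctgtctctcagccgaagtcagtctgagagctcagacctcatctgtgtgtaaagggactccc
Hadhb: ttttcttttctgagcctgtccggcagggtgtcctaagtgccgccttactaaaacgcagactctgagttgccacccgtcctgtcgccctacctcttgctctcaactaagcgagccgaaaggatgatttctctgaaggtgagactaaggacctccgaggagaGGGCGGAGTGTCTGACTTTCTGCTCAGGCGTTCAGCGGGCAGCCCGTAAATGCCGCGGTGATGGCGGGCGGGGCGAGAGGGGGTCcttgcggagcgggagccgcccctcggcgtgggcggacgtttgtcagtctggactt
Both strands of 32851 windows of this length were searched for 5 motifs. AGGTCANAGGTCA, the repeat bound by PPAR and RXR, was in 0.0396% of all windows and in 0 of the 9. AAGGTCA, a part of the ERR response element, was in 4.72% of all windows and in 1 of the 9, Acadm, 249 bases upstream of the start. GCGCATG, a part of the NRF1 motif, was in 3.91% of all windows and in 2 of the 9, Acadm and Etfdh. In Etfdh its matches, 128 and 125 bases upstream, overlap on opposite strands. TGACG, the core of a cAMP response element, was in 20.8% of all windows and also in Acadm and Etfdh. CACGTG, the E-box, was in 7.15% of all windows and in 0 of the 9. The Acadl, Acadvl, Hadha and Hadhb windows held none of the 5. A match is a stretch of letters and not a measured site, and an empty window covers only these letters in these 300 bases.

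The 15 libraries held 5667 to 7596 cells and 32341960 to 70307384 UMIs each. All 10 microglial markers on the list had UMIs in every group, and summed to 24206 to 25847 CPM (UMI counts scaled to a common library total) in ATV:RSV, against 16143 to 18013 CPM in ATV:4D9 day 1 libraries. The ATV:4D9 day 1 libraries stood apart from all others in UMIs per cell, in the share of cluster 2 and in cycling cells. Their median cell held 8202 to 8996 UMIs against 4975 to 5750 in ATV:RSV, 87.3 to 93.5% of cells were in cluster 2 against 1.12 to 2.35%, and 19.6 to 27.4% of cells had a UMI of the cycling genes Mki67 or Top2a against 0.397 to 0.684%. The median share of mitochondrial UMIs was 3.96 to 4.50% against 3.11 to 3.38%, and reached 4.04% in 1 ATV:4D9 day 7 library. Of the markers of other cell types, the 7 astrocyte genes summed to 118 to 123 CPM at day 1 of ATV:4D9 against 224 to 275 CPM in ATV:RSV, and the 6 monocyte genes to 16.2 to 20.5 against 4.67 to 12.1. The oligodendrocyte genes summed to 66.1 to 73.1 against 88.2 to 107 CPM, the neuron genes to 8.64 to 12.7 against 16.8 to 24.1, and the endothelial or mural genes to 9.90 to 16.1 against 21.5 to 28.5, also without overlap. The border-associated macrophage, T or NK cell and B cell lists overlapped between these groups. The 6 neutrophil genes summed to 3.42 to 157 CPM among day 7 libraries and to 3.62 to 10.1 CPM in ATV:RSV. The part of these differences in the results was not tested except where a value without those cells is given. Of 100747 barcode sequences, 1283 (1.27%) occurred in more than 1 library.

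At day 1, Acadl, Acadvl and Hadhb were called higher in ATV:4D9 than in ATV:RSV mice, and Acadm and Cpt1a lower, under the main scaling. The calls of Acadvl and Hadhb were lost when libraries were scaled by their size alone. Levels are given as CPM after TMM scaling, a library-size correction that centres a trimmed mean of the log ratios between libraries and assumes that most genes do not change, and differences as log2 fold changes from limma-voom on the per-mouse sums, with a call at p under 0.05 after Benjamini-Hochberg adjustment over all 14260 genes tested. So 5 of the 10 genes were called, 3 higher and 2 lower, where 69.2% of all tested genes were called, 34.7% higher and 34.6% lower. With most genes called, the assumption behind TMM scaling was not met, and the calls were split almost evenly by direction. The share among the 10 was thus below that among all genes, but 10 genes are too few to read this as a trait of the set. Their median log2 fold change was -0.019, beside -0.046 over all genes tested.

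Acadl, the long-chain dehydrogenase, had the largest log2 fold change of the 10. Its level was 41.0, 42.8 and 42.6 CPM in the 3 ATV:RSV mice and 70.9, 79.9 and 78.3 CPM in the 3 ATV:4D9 mice at day 1. All treated mice were above all controls, and the distance between the groups was many times the spread within either. The log2 fold change was 0.86 ± 0.054 (SE; adjusted p = 9.54e-10, limma-voom), a 1.81-fold difference. Within batches 1, 2 and 3 the log2 difference was 0.79, 0.90 and 0.88. It was called under every alternative tried, with log2 fold changes of 0.62 to 0.92. Without cells holding a UMI of Mki67 or Top2a it was 0.72 (adjusted p = 4.45e-09).

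Acadvl, the very-long-chain dehydrogenase, had 27.6, 27.6 and 30.0 CPM in ATV:RSV and 35.8, 33.7 and 38.5 CPM in ATV:4D9 mice at day 1. The groups did not overlap, and the log2 fold change was 0.34 ± 0.057 (adjusted p = 7.18e-05, limma-voom). Acadm, the medium-chain dehydrogenase, went the other way: 64.9, 61.7 and 62.6 CPM in ATV:RSV against 54.9, 53.5 and 51.4 CPM at day 1. Again no treated mouse reached a control, here from below, and the log2 fold change was -0.24 ± 0.056 (adjusted p = 0.00105). Acadm was called lower under each alternative tried, with values of -0.48 to -0.15.

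**Figure D1:**
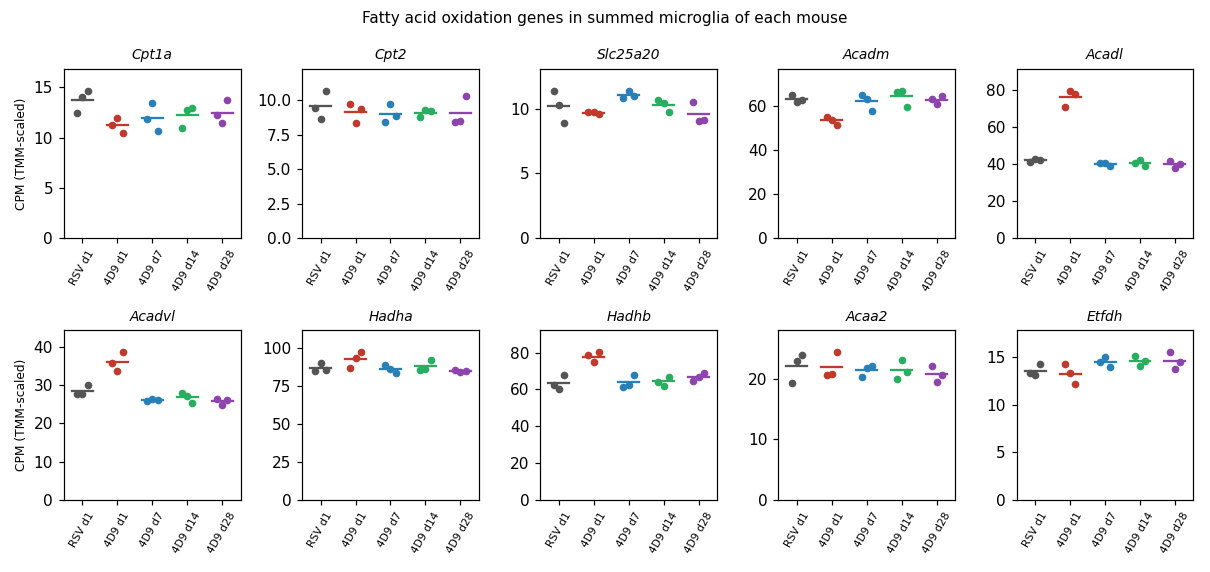
Level of each of the 10 genes (vertical axis, TMM-scaled CPM, starting at 0) in each mouse (points) of the 5 groups (horizontal axis: RSV d1 is ATV:RSV at day 1, and 4D9 d1 to d28 are ATV:4D9 at days 1 to 28). Lines are means of 3 mice. Acadl stands at 70.9 to 79.9 CPM at day 1 of ATV:4D9 and at 38.2 to 42.8 CPM in all other mice. The day 1 mice of ATV:4D9 also stand above all other mice for Acadvl and Hadhb and below them for Acadm. In the remaining panels they overlap other groups.

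Of the subunits of the trifunctional protein, Hadhb passed the test and Hadha did not. Hadhb, the beta subunit with thiolase activity, had 62.2, 60.3 and 67.7 CPM in ATV:RSV and 78.5, 74.8 and 80.1 CPM at day 1, with no overlap and a log2 fold change of 0.30 ± 0.055 (adjusted p = 0.000166, limma-voom). Hadha, the alpha subunit with hydratase and dehydrogenase activity, had 84.5, 90.1 and 85.2 CPM in ATV:RSV and 86.9, 93.4 and 96.8 CPM at day 1. Here the groups overlapped, and the log2 fold change of 0.09 (95% interval -0.013 to 0.20) did not pass the test (adjusted p = 0.107). Without cells holding a UMI of Mki67 or Top2a, Hadha passed it (log2 fold change 0.12, adjusted p = 0.0367), and it also passed without ATV:4D9 day 1 replicate 1 (0.14, adjusted p = 0.0216).

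Of the carnitine entry steps, Cpt1a, the rate-limiting acyltransferase, had 12.5, 14.0 and 14.7 CPM in ATV:RSV and 11.2, 11.97 and 10.5 CPM at day 1. All treated mice were below the controls, by little in batch 1 (log2 difference -0.15) and by more in batch 3 (-0.49). The log2 fold change was -0.28 ± 0.097 (adjusted p = 0.0191, limma-voom). This call was lost when either of ATV:RSV replicates 2 and 3 (adjusted p = 0.0560 and 0.0798) or either of ATV:4D9 day 1 replicates 1 and 3 (0.0504 and 0.0701) was left out. It was also lost without the low-count filter (0.0571) and without cells holding UMIs of at least 3 markers of other cell types (0.0938). In these 6 fits the log2 fold change was -0.27 to -0.23, so the direction and most of the size remained. Slc25a20, the carrier, ranged from 8.90 to 11.4 CPM in ATV:RSV and from 9.58 to 9.74 at day 1, and Cpt2, the inner-membrane acyltransferase, from 8.66 to 10.7 and from 8.31 to 9.72. Neither passed the test (log2 fold change -0.07 for each, adjusted p = 0.451 for Slc25a20 and 0.523 for Cpt2).

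At the last steps no difference passed the test under TMM scaling. Acaa2, the 3-ketoacyl-CoA thiolase, had 19.4 to 24.1 CPM in ATV:RSV and 20.7 to 24.4 at day 1, with a log2 fold change of -0.012 and a 95% interval from -0.20 to 0.17. Etfdh, the electron-transfer flavoprotein dehydrogenase, had 13.1 to 14.3 CPM and 12.2 to 14.3 CPM, with a log2 fold change of -0.026 and an interval from -0.18 to 0.12. These intervals have room for a change in either direction, so the levels are not shown to be equal. Both were called lower with library size alone, Acaa2 by a log2 fold change of -0.25 (adjusted p = 0.0169, limma-voom) and Etfdh by -0.27 (adjusted p = 0.00418), where the median over all genes was -0.285.

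**Figure D2:**
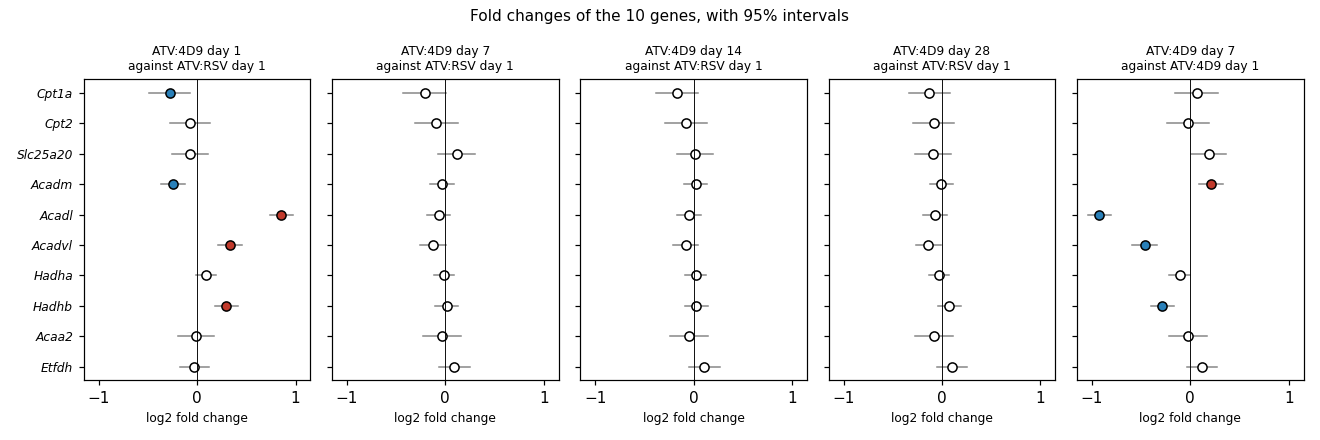
Log2 fold change of each gene (horizontal axis) with its 95% interval (line) in the 5 comparisons, 3 mice a group. Red points passed the test as higher, blue as lower, and open points did not pass: 5 points are filled in the first panel, 4 in the last, and 0 in the 3 panels of later days against ATV:RSV.

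These calls depended on how libraries were scaled. TMM factors were 1.05 to 1.06 in ATV:RSV libraries but 0.878 to 0.906 in those of ATV:4D9 day 1. With library size alone, the median over all genes moved from -0.046 to -0.285, and 25.9% of genes were called higher and 48.8% lower in place of 34.7% and 34.6%. Of the 10 genes, 1 (Acadl, log2 fold change 0.62, adjusted p = 3.05e-08) was then called higher and 7 lower (Cpt1a, Cpt2, Slc25a20, Acadm, Hadha, Acaa2 and Etfdh). Acadvl (0.099, adjusted p = 0.100) and Hadhb (0.056, adjusted p = 0.374) no longer passed, and Hadha turned from 0.09 to -0.15 (adjusted p = 0.0134). Against the shifted median of all genes, Acadl, Acadvl, Hadhb and Hadha were still above it, and Acadm (-0.48) and Cpt1a (-0.52) still below. Acadl was called higher on both scales, and Acadm and Cpt1a were called lower on both.

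Counted per cell, every one of the 10 genes had a higher mean at day 1. There the median cell held 8202 to 8996 UMIs in all, against 4975 to 5750 in ATV:RSV. The same count over all genes was not computed. ATV:RSV mice had 261 to 286 Acadl UMIs per 1000 cells and ATV:4D9 mice at day 1 had 610 to 666, a log2 ratio of group means of 1.22. Acadvl went from 168 to 194 UMIs per 1000 cells in ATV:RSV to 281 to 320 at day 1, and Hadhb from 368 to 437 to 623 to 702. Even Acadm, lower as a share of UMIs, had 376 to 452 per 1000 cells in ATV:RSV and 400 to 491 at day 1, and these ranges overlapped. The per-cell counts also hold the greater UMI yield per cell at day 1, so more RNA per cell and deeper capture of the same RNA cannot be told apart here.

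**Figure D3:**
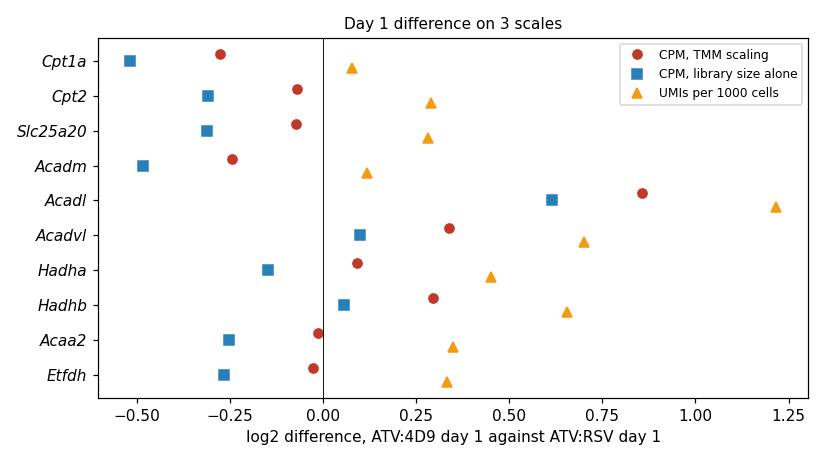
Log2 difference of each gene between ATV:4D9 day 1 and ATV:RSV day 1 (horizontal axis) on 3 scales: TMM-scaled CPM (circles), CPM by library size alone (squares) and UMIs per 1000 cells (triangles, log2 ratio of the means of 3 mice). Acadl is above 0 on all 3 (0.86, 0.62 and 1.22), whereas Acadm and Cpt1a are below 0 on the first and second and slightly above on the third (0.12 and 0.077).

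Shares of cells with at least 1 UMI were compared after each cell was thinned to 3385 UMIs. The 10204 cells with fewer were dropped (8.69 to 17.8% of the cells of an ATV:RSV mouse and 3.93 to 5.79% of an ATV:4D9 day 1 mouse). Acadl was then seen in 13.2 to 14.0% of ATV:RSV cells and 18.3 to 21.0% of ATV:4D9 day 1 cells, and in 21.6 to 23.6% and 40.8 to 43.8% before thinning. Acadm was seen in 19.7 to 20.7% and in 14.8 to 15.4% after thinning, and in 29.5 to 34.3% and 31.5 to 37.2% before. Over the 10 genes, the thinned shares of the day 1 mice were all above the controls for 1 (Acadl), all below for 6 (Cpt1a, Cpt2, Slc25a20, Acadm, Hadha and Etfdh) and overlapped them for 3 (Acadvl, Hadhb and Acaa2). With cells thinned to 4383 UMIs instead, the counts were 1, 5 and 4, because Cpt2 and Etfdh overlapped and Acaa2 was all below. That setting kept 5273 of 7020, 4235 of 6794 and 4416 of 6487 cells of the ATV:RSV mice. Of the day 1 mice it kept 6457 of 7118, 6589 of 7343 and 5169 of 5998 cells, so the loss was less even. The same tally over all genes was not computed, so the counts of the 10 cannot be set against all genes. With library size alone, which also takes each count relative to total UMIs but is another measure, 48.8% of all genes were called lower. Acadvl and Hadhb, called higher under TMM scaling, were not set apart by their thinned shares. Hadha went from 25.7 to 26.8% down to 23.6 to 24.5%. No cell type that should lack these genes was in the data, so no background share could be set beside these values.

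Ratios between members in the same mouse need no scaling. The ratio of Acadl to Acadm UMIs was 0.631, 0.695 and 0.680 in ATV:RSV mice and 1.29, 1.49 and 1.52 in ATV:4D9 day 1 mice. Its means on days 7, 14 and 28 were 0.651, 0.637 and 0.639. The ratio of Acadvl to Acadm was 0.451 ± 0.028 in ATV:RSV and 0.677 ± 0.063 at day 1 (SD, 3 mice). Hadha to Hadhb went from 1.37 ± 0.12 to 1.19 ± 0.074, and all 3 day 1 mice were below all 3 controls. In a two-sided exact permutation test these 3 ratios each gave p = 0.1, the smallest that 3 mice against 3 allow (0.133 adjusted over the 4 ratios tested), so none could reach 0.05. Cpt1a to Cpt2 was 1.44 ± 0.16 and 1.24 ± 0.18, with overlapping groups (exact permutation p = 0.3). The ratios were picked after the levels had been seen.

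**Figure D4:**
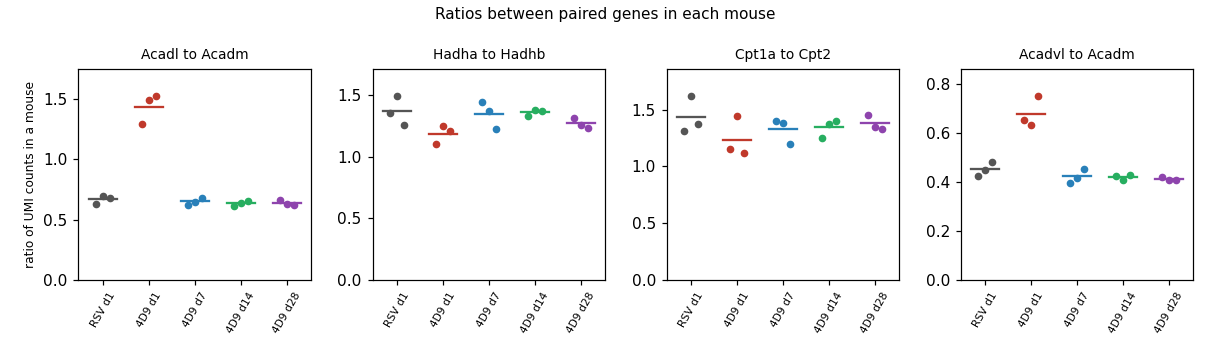
Ratio of UMI counts between 2 genes in each mouse (points, vertical axis from 0) in the 5 groups, with means of 3 mice as lines. The Acadl to Acadm ratio is 1.29 to 1.52 at day 1 of ATV:4D9 and 0.616 to 0.695 in all other mice.

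At day 7 Acadl, Acadvl, Acadm and Hadhb, all called at day 1, had log2 fold changes against ATV:RSV of -0.07, -0.12, -0.032 and 0.012. Cpt1a, also called at day 1, stayed closer to its day 1 value (-0.21 at day 7 beside -0.28 at day 1). None of the 10 passed the test at day 7, day 14 or day 28 against ATV:RSV, where 3.98%, 0.4% and 0% of all tested genes did. By limma-voom, an unadjusted p under 0.05 was reached by 0, 0 and 1 of the 10 on those days. Of all 14260 genes, 2336, 770 and 571 reached it. By edgeR and DESeq2, 0 of the 10 were called as well. At day 28 limma-voom and edgeR called 0 genes of 14260 and DESeq2 called 14. Log2 fold changes of the 10 ran from -0.21 (Cpt1a) to 0.11 (Slc25a20) at day 7, from -0.17 (Cpt1a) to 0.11 (Etfdh) at day 14 and from -0.14 (Acadvl) to 0.10 (Etfdh) at day 28. With 1 mouse left out at a time, Cpt1a ran from -0.29 to -0.11 at day 7 and from -0.24 to -0.087 at day 14. Slc25a20 ran from 0.022 to 0.20 at day 7. Their medians were -0.033, -0.014 and -0.075, beside -0.0049, -0.0014 and 0.0014 over all genes. In these fits with 1 mouse left out, the median of the 10 ran from -0.060 to -0.020 at day 7. At day 28 it ran from -0.070 to -0.030.

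Acadl had 40.5, 40.9 and 39.1 CPM at day 7, 40.7, 42.4 and 39.1 at day 14 and 41.9, 38.2 and 40.2 at day 28. All day 7 mice were slightly below the lowest ATV:RSV mouse (41.0 CPM), and the log2 fold change of -0.07 had a 95% interval from -0.19 to 0.051. Acadvl was 25.7 to 26.2 CPM at day 7 and 24.9 to 26.4 at day 28, in both cases below all ATV:RSV mice (27.6 to 30.0). Its log2 fold changes of -0.12 and -0.14 did not pass the test (adjusted p = 0.339 and 1.00), and the unadjusted p at day 28 was 0.0349. With library size alone, Acadvl passed it at day 7 (-0.22, adjusted p = 0.0285). Etfdh was at 13.9 to 15.01 CPM at day 7, 14.0 to 15.1 at day 14, and 13.7 to 15.5 CPM at day 28, where ATV:RSV mice had 13.1 to 14.3 CPM.

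The change from day 1 to day 7 was tested directly. Of the 10 genes, 4 passed, 1 higher at day 7 and 3 lower, where 66.9% of all genes did, 33% higher and 33.9% lower. Acadl was lower at day 7 by a log2 fold change of -0.93 ± 0.055, Acadvl by -0.46 ± 0.059 and Hadhb by -0.28 ± 0.055, and Acadm was higher by 0.21 ± 0.056 (adjusted p from 5.50e-10 to 0.00350, limma-voom). In each of these 4 the groups did not overlap, and neither did they for Slc25a20, which was not among the 4. The share of all genes without overlap was not computed. In the 4 genes the direction was opposite to that of day 1 against control. Both comparisons contain the same day 1 mice. Without cells holding a UMI of Mki67 or Top2a, Acadm no longer passed (0.11, adjusted p = 0.0878). Slc25a20 (0.19, adjusted p = 0.0638) and Hadha (-0.11, adjusted p = 0.0697) missed the threshold. With the batch as a block, 5 genes passed, Slc25a20 among them (adjusted p = 0.0254), and it also passed in the 6 mice alone and without the cells with most UMIs. Scaled by library size alone, 6 genes passed, 3 higher and 3 lower, with Slc25a20 (0.33, adjusted p = 0.00262) and Etfdh (0.26, adjusted p = 0.00572) added, where 69.3% of all genes passed and their median was 0.17. Hadha passed by DESeq2 (adjusted p = 0.0421), without the low-count filter (0.0324), without cells holding a UMI of Mki67 or Top2a (0.0218) and without ATV:4D9 day 1 replicate 1 (0.0128), and was at 0.039 with library size alone. The median over the 10 was -0.021, beside 0.021 over all genes.

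The clusters were then taken one at a time. They were built by the authors from the expression of these same cells, so clusters were not tested against each other, and the values between them are a description. In ATV:RSV mice, Acadl had 43.3 CPM of the cluster's UMIs in cluster 0, 46.4 CPM in cluster 1 and 58.7 CPM in cluster 2 (means of 3 mice, without TMM scaling), where cluster 2 held only 76 to 165 cells of a mouse. At day 1 of ATV:4D9 the means were 51.8, 49.9 and 69.3. Acadm was lower in cluster 2 than in the others in every group, with means of 46.7 to 57.0 against 60.4 to 68.7 CPM.

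Within cluster 0, none of the 10 genes passed the test on day 1, 7, 14 or 28, where 5.09%, 4.28%, 0.113% and 0% of the 13329 genes tested there did. Acadl had 42.7 to 58.1 CPM there at day 1 against 41.5 to 43.4 CPM in ATV:RSV, and its log2 fold change of 0.24 ± 0.11 missed the threshold (adjusted p = 0.253, limma-voom). Within cluster 1, again none of the 10 passed, where 9.18%, 5.76%, 1.18% and 0% of 11989 genes did. Acadl there had a log2 fold change of 0.098 ± 0.11. By an unadjusted p under 0.05, 0 or 1 of the 10 passed in each of these 8 comparisons, and edgeR called 0 in each. By limma-voom, 564 to 2556 of the 13329 genes in cluster 0 and 600 to 2563 of the 11989 in cluster 1 had such a p. In cluster 1 at day 7, Acadl (-0.26, adjusted p = 0.0139) and Acadvl (-0.39, adjusted p = 0.00439) were called lower when scaled by library size alone, which called 17.7% of all genes, with a median of -0.14.

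Within cluster 2, Cpt1a alone of the 10 passed, and at day 1 alone, where 36.8%, 0.693%, 0% and 0% of 8511 genes passed on days 1, 7, 14 and 28. At days 7, 14 and 28, 0, 1 and 1 of the 10 had an unadjusted p under 0.05 by limma-voom, beside 822, 528 and 566 of the 8511 genes. On these days edgeR called 0 of the 10. Where no gene of the 8511 passed by limma-voom, edgeR called 2 genes at day 14 and 4 at day 28. At day 1 Cpt1a had 9.58 to 10.9 CPM in cluster 2 against 16.0 to 18.8 CPM in ATV:RSV, with no overlap and a log2 fold change of -0.79 ± 0.19 (adjusted p = 0.00326, limma-voom). It had 13 to 25 UMIs of Cpt1a per control mouse behind it. Cluster 2 held 87.3 to 93.5% of the cells of an ATV:4D9 day 1 mouse and 1.12 to 2.35% of those of an ATV:RSV mouse. Whether the cells compared were in the same state was not tested. Acadl was higher in all 3 day 1 mice (67.3 to 74.8 against 47.5 to 66.2 CPM), but its log2 fold change of 0.31 ± 0.12 missed the threshold (adjusted p = 0.0535). With the batch as a block Acadl passed as well (0.29, adjusted p = 0.0476), where 41% of all genes did. Acadm was at 47.1 to 49.6 CPM against 45.4 to 59.0 CPM, a log2 fold change of -0.076 ± 0.13. For Acadl, Acadvl, Acadm, Hadha and Hadhb the day 1 log2 fold change over all cells was larger in size than that within any of the 3 clusters. For Cpt1a it was smaller over all cells (-0.28) than within cluster 2 (-0.79). Cpt2, Slc25a20, Acaa2 and Etfdh also had a larger size within a cluster. Whether the sizes differ was not tested, and each cluster was fitted with its own gene filter and TMM scaling. The same tally over all genes was not computed. In clusters 0 and 1 the day 1 mice had only 180 to 555 cells each.

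**Figure D5:**
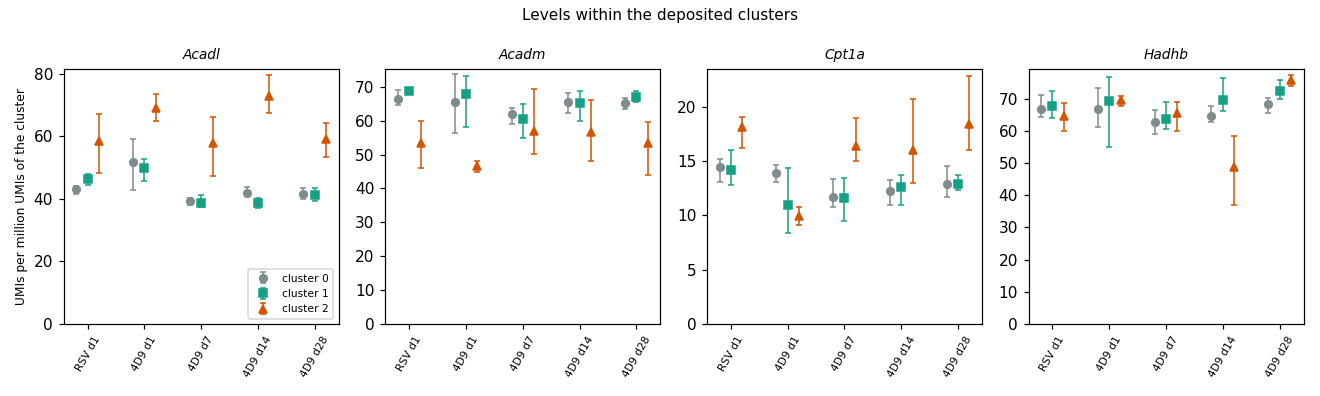
Level (vertical axis from 0, CPM of the cluster's UMIs) of 4 of the genes in the 3 deposited clusters, as mean (symbol) and lowest to highest mouse (bar) of 3 mice in each group. Cluster 2 of the groups other than ATV:4D9 day 1 holds few cells and has wide bars. Acadl is higher in cluster 2 than in clusters 0 and 1 in all 5 groups, and Cpt1a in cluster 2 is lower at day 1 of ATV:4D9 (9.10 to 10.7) than in ATV:RSV (16.3 to 19.1).

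The rest of the pathway was described from named lists. These lists, like the 10 genes, were drawn up with earlier results known. Their day 1 counts stand beside 69.2% of all tested genes called, 34.7% higher and 34.6% lower. Those with library size alone stand beside 25.9% of all tested genes called higher and 48.8% lower. Of 19 other mitochondrial beta-oxidation enzymes, 16 were called at day 1, 11 higher and 5 lower, with a median log2 fold change of 0.29 (with library size alone, 7 higher and 8 lower). Etfa and Etfb, the subunits of the flavoprotein that takes electrons from the acyl-CoA dehydrogenases, were the highest. Etfa went from 29.7 ± 3.0 to 57.5 ± 3.6 CPM (SD, 3 mice) with a log2 fold change of 0.96 ± 0.070, and Etfb by 0.80 ± 0.064. Acad12 (-0.98 ± 0.16) and Acads, the short-chain dehydrogenase (-0.72 ± 0.054, from 97.9 ± 4.1 to 59.2 ± 2.3 CPM), were the lowest.

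Around entry, 13 of 17 tested genes for carnitine handling, fatty acid activation and malonyl-CoA passed the day 1 test, 5 higher and 8 lower (3 and 8 with library size alone), with a median of -0.28. The highest were Fasn, fatty acid synthase (3.49 ± 0.24 to 13.8 ± 0.36 CPM, log2 fold change 1.98 ± 0.11), and Acaca, the carboxylase that makes malonyl-CoA, an inhibitor of CPT1 (1.23 ± 0.098). The lowest were the carnitine transporter genes Slc22a21 (-0.95 ± 0.20) and Slc22a5 (-0.73 ± 0.18), both under 2 CPM. Of 18 genes for uptake, droplet storage and lipolysis, 12 were called, 6 higher and 6 lower (5 and 8 with library size alone), a share near that over all genes. Lpl, lipoprotein lipase, went from 11.3 ± 3.4 to 221 ± 38 CPM (4.35 ± 0.23) and the fatty acid translocase Cd36 from 0.450 ± 0.13 to 3.24 ± 0.061 CPM (2.86 ± 0.24). The lipases Mgll (-0.97 ± 0.059) and Lipe (-0.94 ± 0.070) were the lowest. At day 7 Mgll was still lower (-0.32 ± 0.059, adjusted p = 0.00436) and the fatty acid binding protein Fabp5 higher (0.78 ± 0.19, adjusted p = 0.0254).

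Of 13 peroxisomal beta-oxidation genes, 6 were called at day 1, 1 higher (Scp2, a sterol carrier, 0.14 ± 0.042) and 5 lower. The acyl-CoA oxidase Acox3 was among the 5 (-0.61 ± 0.078). With library size alone 11 were called, all of them lower. Among 13 PPAR, ERR and coactivator genes 9 were called, 1 higher (Pprc1, a PGC-1-related coactivator, 0.76 ± 0.10) and 8 lower (1 and 9 with library size alone), Ncor1 the least so (-0.21 ± 0.074). The share called was again near that over all genes. Rxra, the partner receptor of PPARs, fell from 23.4 ± 0.82 to 10.1 ± 0.34 CPM (-1.21 ± 0.064) and the corepressor Nrip1 from 399 ± 17 to 182 ± 13 CPM (-1.13 ± 0.077). The ERR-alpha gene Esrra was among the 8 (-0.35, adjusted p = 0.000314), as was Ppard (-0.46, adjusted p = 8.35e-06), both named after their values were seen. Of 8 PPAR target genes outside the pathway only 2 had enough counts to be tested: Angptl4 was higher, from 0.106 ± 0.012 to 1.63 ± 0.19 CPM (3.81 ± 0.35), and Ucp2 lower (-0.61 ± 0.10). Angptl4 had very few UMIs in ATV:RSV. It met the count filter through the day 1 mice, where it was high, so its fold change is a description only.

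Downstream of acetyl-CoA, 15 of 17 TCA cycle genes passed the day 1 test, 14 higher and 1 lower, with a median of 0.45 (13 and 3 with library size alone). Idh3a, an isocitrate dehydrogenase subunit, went from 20.4 ± 1.2 to 58.8 ± 1.5 CPM (1.53 ± 0.060) and Fh1, fumarase, rose by 1.19 ± 0.054, whereas Idh3g was at -0.16 ± 0.053. Sucla2, a succinyl-CoA ligase subunit, was the least raised of the others called (0.25 ± 0.047). Of 18 genes for mitochondrial import, chaperones and genome maintenance 17 were called, 15 higher and 2 lower (14 and 2), with a median of 0.84, led by the chaperones Hspd1 (1.72 ± 0.11) and Hspe1 (1.45 ± 0.12). The lower ones were Twnk and Polg, the mitochondrial DNA helicase and polymerase (-0.51 ± 0.12 and -0.32 ± 0.063). At day 7 the import receptor Tomm20 was the one gene of this list called (0.18 ± 0.047, adjusted p = 0.0430). At days 14 and 28 no gene of any of these lists passed the test by limma-voom, where 57 and 0 of all genes did, and by DESeq2 132 and 14 of all genes did.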

How the data were processed

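Per the labels and the methods, the authors isolated CD45-positive cells with beads, made 10x Genomics 3′ v3 libraries, aligned them to mm10 with Cell Ranger (4.0.0 in the submitters' processing notes, while the methods name other versions) and filtered, integrated and clustered the cells with Seurat. The authors deposited 1 matrix of raw UMI counts per gene and cell, and a cell table with the mouse, the cluster and the percent of mitochondrial UMIs. The cell filters and the use of strand are not given in the sources used here. The 102043 cells were summed per mouse, and per mouse and cluster (at least 50 cells), and the doublet status of cells was not called. In the series a further control animal was not analysed here.

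Genes were filtered with filterByExpr (minimum count 10, total 15), scaled by TMM and tested over all 15 mice by limma-voom in R 4.3.3 (edgeR 4.0.16 and limma 3.58.1), with Benjamini-Hochberg adjustment and a threshold of 0.05. SE is the standard error of the log2 fold change, and levels are CPM with the SD of 3 mice. Each limma-voom p-value weighs a group difference against the spread between mice within groups, estimated over all groups of the fit and moderated across genes. Alternatives were edgeR's quasi-likelihood test, DESeq2 1.42.0, library size alone, no filter, the batch as a block, the 6 mice compared alone, removal of cells (cycling, with most UMIs, or with markers of other types) and leaving out each mouse. The labels say that a batch holds all 5 conditions, so batch numbers pair the mice. Residuals of mice of the same batch correlated at a mean r of 0.104 over 30 pairs, against -0.052 over 60 pairs of different batches. Replicates differed beyond sampling noise in every pair. The scripts were tested on simulated data.

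The members and gene lists were chosen with earlier results of these data known. Named from each list were the 2 highest and 2 lowest genes called at day 1 and each gene called later. Some genes that this rule names are not reported here.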

Additional observations from a re-analysis of the deposited data

Results flagged for a closer look

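The difference between day 7 and day 1 of ATV:4D9, tested directly with limma-voom, passed the threshold in 4 of the 10 genes, where 66.9% of all genes did, so their day 1 and day 7 levels against ATV:RSV differed from each other. The log2 fold change of day 7 against day 1 was -0.93 for Acadl, -0.46 for Acadvl, -0.28 for Hadhb and 0.21 for Acadm. Without cells holding a UMI of Mki67 or Top2a, Acadm no longer passed (0.11, adjusted p = 0.0878). Groups of 3 mice are too small to call a single mouse an outlier. With 1 mouse left out at a time, Acadl ran from -0.99 to -0.90 and Acadvl from -0.51 to -0.42. Hadhb ran from -0.34 to -0.26 and Acadm from 0.17 to 0.26.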

How the results depend on the processing

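Depth limited the values within clusters: in cluster 2 of a control mouse, Cpt1a rested on 13 to 25 UMIs, Cpt2 on 6 to 19, Slc25a20 on 7 to 15 and Etfdh on 5 to 26. Over the 10 genes and 5 comparisons, 721 of the log2 fold changes recomputed under an alternative had the same direction and side of the threshold, 54 turned in sign, 16 gained and 9 lost the call. At day 1 Acadl and Acadm held under all 16 alternatives, and Acadvl and Hadhb under 15 of 16, all but library size alone. The removal of cells with 3 markers of 1 other type was chosen after seeing the data, since the planned removal, on markers pooled over types, took 32.6 to 49.1% of cells. Thinning to 4383 UMIs in place of 3385 left larger shares, as more UMIs per cell were kept, and at day 1 took Cpt2 and Etfdh from all below the controls to overlap and Acaa2 from overlap to all below. The cause of the changes below was not tested, except that fewer mice enter where a mouse was left out.

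Under library size alone, the day 1 calls numbered 8, the day 7 calls 1, and those of day 7 within cluster 1 numbered 2, both lower (Acadl and Acadvl), where the shares of all genes called went from 69.2, 3.98 and 5.76% to 74.7, 8.41 and 17.7%. For day 7 against day 1, 6 were called in place of 4, with Slc25a20 and Etfdh added, where 69.3% of all genes were in place of 66.9%. The median of the 10 became -0.26 at day 1, -0.13 at day 7, -0.067 at day 14 and 0.12 for day 7 against day 1, while that of all genes became -0.285, -0.10, -0.055 and 0.17. Hadha at day 1 became -0.15, Hadhb and Etfdh at day 7 became -0.082 and -0.0062, and at day 14 Slc25a20, Acadm, Hadha and Hadhb became -0.038, -0.032, -0.031 and -0.028. For day 7 against day 1, Cpt2 and Acaa2 became 0.12 and 0.12, and Hadha 0.039.

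Acaa2 at day 1 became 0.0096 by DESeq2, 0.017 without the low-count filter and 0.0082 without Mki67 or Top2a cells, which also took Cpt2 for day 7 against day 1 to 0.0069. Etfdh at day 1 became 0.0021 without the filter. Without cells holding 3 markers of other types, Etfdh at day 1 became 0.0073, Acadm and Hadhb at day 7 became 0.00018 and -0.018, Slc25a20, Hadhb and the median at day 14 became -0.012, -0.031 and -0.048, and Cpt2 for day 7 against day 1 became 0.049.

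With the batch as a replicate block, 2 genes were called at day 1 in cluster 2 in place of 1, with Acadl added (log2 fold change 0.29, adjusted p = 0.0476, limma-voom), where 41% of all genes were called in place of 36.8%. For day 7 against day 1, 5 were called in place of 4, where 69.7% of all genes were in place of 66.9%. The block changed no other call of the 10 genes, and called 7.11% of all genes at day 7 in place of 3.98%.

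Leaving out 1 mouse at a time, the ranges that crossed 0 at day 1 were -0.11 to 0.050 for Acaa2, -0.14 to 0.0046 for Cpt2, -0.075 to 0.029 for Etfdh, -0.17 to 0.018 for Slc25a20 and -0.018 to 0.031 for the median. At day 7 they were -0.13 to 0.029 for Acaa2, -0.069 to 0.018 for Acadm, -0.038 to 0.015 for Hadha and -0.036 to 0.061 for Hadhb. At day 14 they were -0.14 to 0.020 for Acaa2, -0.0076 to 0.074 for Acadm, -0.013 to 0.051 for Hadha, -0.0093 to 0.073 for Hadhb, -0.077 to 0.11 for Slc25a20 and -0.042 to 0.0041 for the median. At day 28 Acadm ran from -0.027 to 0.014. For day 7 against day 1, Acaa2 ran from -0.073 to 0.044, Cpt1a from -0.013 to 0.16 Cpt2 from -0.098 to 0.022 and the median from -0.081 to 0.012.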

Other observations

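Summed over the 10 genes, the level was 346 to 361 CPM in the 3 ATV:RSV mice and 393 to 411 CPM in the 3 ATV:4D9 mice at day 1, with no overlap, under TMM scaling. With library size alone the direction turned, again without overlap: 365 to 382 CPM in ATV:RSV against 356 to 361 CPM at day 1, where the median over all genes moved from -0.046 to -0.285 on the log2 scale. In the 9 mice of the later days the sum was 337 to 354 CPM under TMM scaling. Under TMM scaling Acadl alone made up a mean of 42.1 CPM of the sum in ATV:RSV and 76.4 CPM at day 1. Without Acadl no sum was tested.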
